A study of Mus musculus with 6 samples.

Results

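The TNF superfamily genes measured here were 39 of the 19938 genes on the arrays, 15 ligands and 24 receptors, taken by gene symbol (every Tnfsf and Tnfrsf symbol plus Tnf, Lta, Ltb, Ltbr, Fas, Fasl, Cd40, Cd27, Cd70 and Eda) from probe sets with exactly 1 symbol. Each member had a single such probe set. Tnfsf12 and Tnfsf13 had none and were not analysed here as genes. The cells came from dissociated mouse bone marrow and were negative for the leukocyte antigen CD45 and the erythroid antigen Ter119 and positive for CD73, a surface enzyme that makes adenosine. They were sorted by CD105 (endoglin, a TGF-beta co-receptor) into a CD73+CD105- fraction (n = 3) and a CD73+CD105+ fraction (n = 3), with 1 array per sample. No treatment beyond dissociation and sorting is named, and the sources used here give no strain, age or sex.

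TNF superfamily ligands are made mostly as membrane proteins that assemble into trimers and can be shed, and their receptors signal through TRAF adaptors to NF-kB or, where they carry a death domain, to caspases. In bone marrow the family is best known for RANKL (Tnfsf11), which drives osteoclast formation through RANK (Tnfrsf11a), and for osteoprotegerin (OPG, Tnfrsf11b), a secreted decoy receptor that binds RANKL. Other members pass signals between lymphocytes and the stroma that supports them.

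All values are RMA log2 expression values, and a difference is the CD73+CD105+ mean less the CD73+CD105- mean on that scale. The call is a Benjamini-Hochberg adjusted p under 0.05 in limma, over all 19938 genes. As a mark for dim genes, 1190 olfactory and vomeronasal receptor genes, which marrow should hardly express, were used: the 95th percentile of their mean levels was 6.01. The sample titles call the samples biological replicates but tie none to an animal, so each p reflects only how these samples vary. In bulk samples fewer cells of a type and less RNA per cell cannot be told apart. The replicate 1 arrays need care: averaged over the pair, each probe set almost matched the average of the other 4 arrays (SD 0.0627), against an SD of at least 0.202 in the 8 other cross-population pairs, and no label describes this. As a check of the sort, Eng, which encodes CD105, rose by 1.76 (SE 0.15, limma adjusted p = 0.00322). Of 10 pan-endothelial markers 10 rose, with a median difference of 2.37; their median level per array was 5.65 to 6.02 in CD73+CD105- and 8.27 to 8.65 in CD73+CD105+ cells. Of 8 reticular stroma markers 5 rose. With a batch term for the replicate 1 arrays 8 endothelial and 1 reticular marker passed. The average of that pair almost matched the rest, so this term could take up little, and it left the differences unchanged. A call kept or lost with it therefore cannot show whether a batch was present. Lymphoid and myeloid markers held 0 calls, and 5 of 6 and 6 of 8 of them lay below 6.01 in both populations. Of 7 chondrocyte markers 0 passed in limma and 4 had an unadjusted p under 0.05, where 17.7% of all genes did. All 7 differences lay below 0, with a median of -0.26. Median levels were 12.08 and 11.66 in the CD73+CD105- and CD73+CD105+ fractions, in cells that the labels call primary bone marrow.

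No TNF superfamily member passed the test between the populations: the count was 0 of 39 in limma, where 1.82% of all genes did, and the lowest adjusted p was 0.0901. Differences ran from -0.74 for the TRAIL receptor Tnfrsf10b to 0.41 for the death receptor Fas, with a median of 0.00733 against -0.02 over all genes. The median size of a difference was 0.0919, against 0.105 over all genes. At an unadjusted p under 0.05 there were 9 members, 4 higher in CD73+CD105+ cells (8.58% of all genes were) and 5 lower (9.09%), which is 23.1% of the members against 17.7% of all genes. In 11 members the arrays of one population lay wholly above those of the other, 6 higher in CD73+CD105+ cells (10.7% of all genes were) and 5 lower (12.9%), which is 28.2% against 23.7% of all genes. The 95% confidence interval of the difference stayed within a 2-fold change in either direction for 38 of the 39 members, the exception being Tnfrsf10b. The same held for 19342 of all 19938 genes. Of the members 17 lay below 6.01 in both populations, where differences may be understated. With a batch term for the replicate 1 arrays, which left the differences unchanged, the count was also 0 of 39, where 0.507% of all genes passed. With 3 arrays a group the standard error of a member's difference was 0.0639 to 0.223, and a difference of -0.36 with an SE of 0.08 (Tnfrsf18) did not pass.

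**Figure D1:**
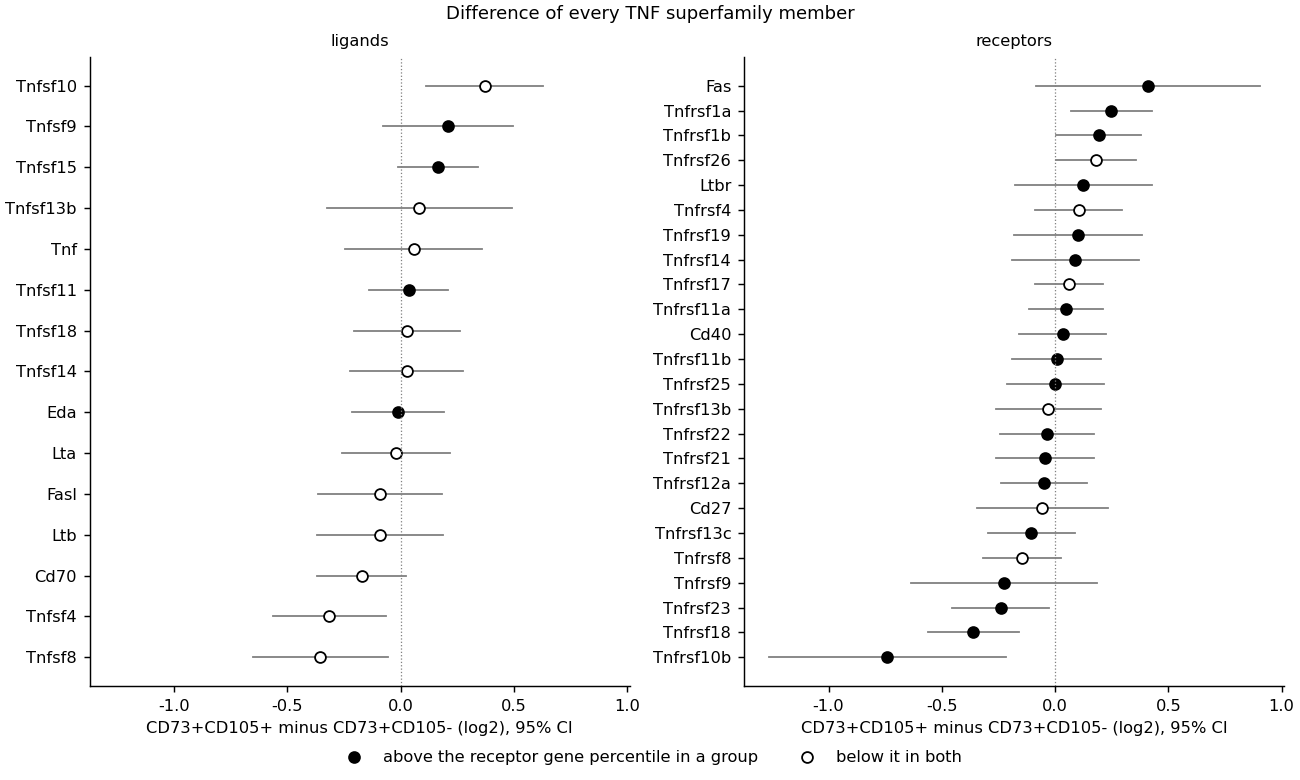
Difference of each of the 39 members (log2, CD73+CD105+ minus CD73+CD105-) with its 95% confidence interval from limma, ligands on the left and receptors on the right; open circles mark members with both means below the receptor gene percentile (6.01). Points run from -0.74 (Tnfrsf10b) to 0.41 (Fas), most intervals cross 0, and 0 of 39 members passed after adjustment.

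In the RANKL axis, neither the ligand, its signalling receptor nor its decoy receptor passed. Tnfsf11 stood at 7.79, 7.66 and 7.70 in CD73+CD105- replicates 1, 2 and 3 and at 7.70, 7.84 and 7.72 in CD73+CD105+ replicates 1, 2 and 3. The populations overlapped, and the difference was 0.03 (SE 0.07, 95% CI -0.14 to 0.21, limma adjusted p = 0.85). For Tnfrsf11b, the OPG gene, the arrays read 9.29, 9.18 and 9.40 in CD73+CD105- and 9.36, 9.31 and 9.22 in CD73+CD105+ cells. These groups overlapped too, with a difference of 0.00733 (SE 0.08, 95% CI -0.19 to 0.20, limma adjusted p = 0.976). Tnfrsf11a, the receptor that osteoclast precursors use, stood at 6.63, 6.66 and 6.66 in CD73+CD105- and at 6.79, 6.64 and 6.67 in CD73+CD105+ cells. The replicate 1 array of CD73+CD105+ cells was the highest and the other 5 lay close together, giving a difference of 0.05 (SE 0.07, 95% CI -0.11 to 0.21, limma adjusted p = 0.766). All 3 genes lay above the receptor gene percentile in both populations.

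The balance of ligand and decoy was followed within each array as the Tnfsf11 value minus the Tnfrsf11b value, which shows unequal change of the pair but not which transcript is more abundant. It was -1.50, -1.51 and -1.70 in CD73+CD105- replicates 1, 2 and 3 and -1.66, -1.47 and -1.51 in CD73+CD105+ replicates 1, 2 and 3. The means were -1.57 ± 0.11 and -1.54 ± 0.10 (SD, n = 3 each), a difference of 0.03 that was smaller than the spread within either group (exact permutation test, two-sided, p = 0.60, where 3 against 3 arrays cannot go below 0.10). Its sign was not stable: it was -0.16 in the replicate 1 arrays, 0.12 in replicates 2 and 3, -0.04 with CD73+CD105- replicate 3 left out and -0.01 with CD73+CD105+ replicate 2 left out.

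**Figure D2:**
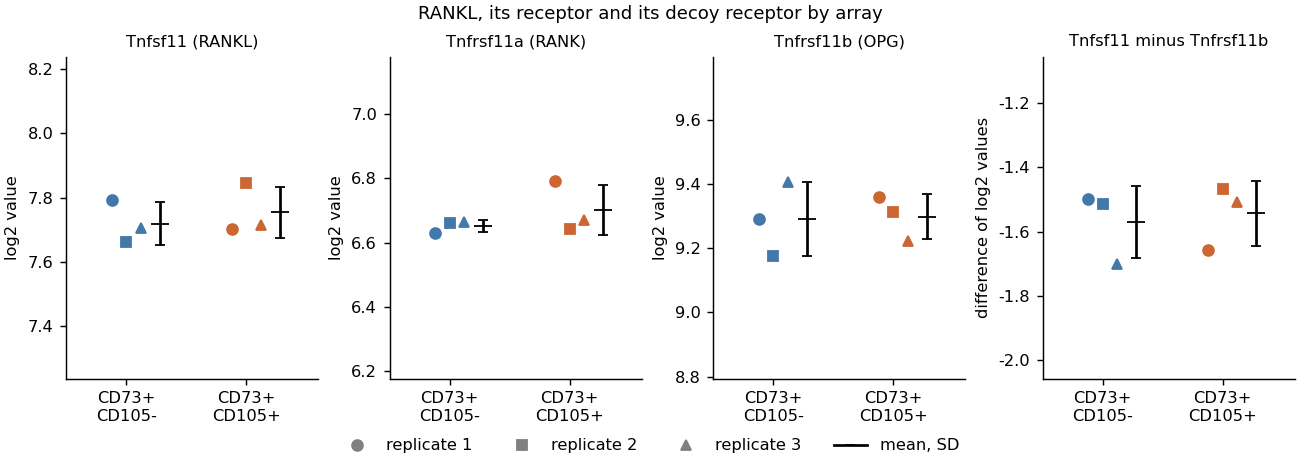
RMA log2 values of Tnfsf11 (RANKL), Tnfrsf11a (RANK) and Tnfrsf11b (OPG) and, in the last panel, the within-array difference Tnfsf11 minus Tnfrsf11b; each symbol is 1 array and the bar is the mean with its SD (n = 3). Every panel spans 1 log2 unit, and the 2 populations overlap in all 4 panels, with group means of the difference at -1.57 and -1.54.

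Osteoclasts answer RANKL, and they belong to the CD45+ lineage that the gate removed. Among 10 osteoclast markers 1 rose, Mmp9, a matrix protease also made by other marrow cells, by 1.18 (SE 0.17, limma adjusted p = 0.0226; 0.0642 with a batch term for the replicate 1 arrays). At an unadjusted p under 0.05 there were 4 of the 10 in limma, where 17.7% of all genes were, and the list median was 0.04. Acp5, the acid phosphatase of osteoclasts, was at 0.37 and the collagen-degrading protease gene Ctsk at 0.27 (limma adjusted p = 0.0578 and 0.202). The groups were apart for both genes, as for 23.7% of all genes. The proton pump subunit gene Atp6v0d2 was at 0.61 and the cell fusion gene Dcstamp at -0.26 (0.321 and 0.163). Calcr, the calcitonin receptor, and Oscar, an osteoclast immunoreceptor, had differences of -0.0044 and 0.00237, and Calcr, Oscar and Dcstamp lay below 6.01 in both populations. Of 11 measured regulators (14 were listed) of RANKL and OPG in bone cells 1 rose, Il6st (gp130, the shared signalling chain of the IL-6 family), by 0.43 (SE 0.06, limma adjusted p = 0.0257), where 1.35% of all genes rose. That call was lost with the batch term (0.112) and without any one array (0.0521 to 0.139). Ebf1, a transcription factor of B cells and of reticular stroma, was at 1.44 and did not pass (0.0519), though it did without CD73+CD105- replicate 3 (0.0277), among genes above the receptor gene percentile (0.0432) and with an intensity trend in the fit (0.0441). Vdr, the vitamin D receptor, and Pth1r, the parathyroid hormone receptor, were at -0.18 and -0.29. The median difference of these regulators was 0.04.

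The upstream DNA of a few members is shown because RANKL is the ligand the comparison centres on and Tnfsf10 and Tnfrsf18 are the ligand with the largest difference above 0 and the receptor with the lowest adjusted p. Of the 39 members 31 had an entry among the RefSeq promoters of build GRCm38.p6, and Tnfrsf11b and Tnfrsf10b were not among them. Each run is the 250 bases before the annotated start, on the gene's strand, with matches in capitals to TGANTCA (AP-1) and TGTGGT (RUNX), searched on both strands, and to the box TATAA, searched on the gene's strand. They lie at chr14:78308044-78308293 on the minus strand for Tnfsf11, chr3:27316827-27317076 on the plus strand for Tnfsf10 and chr4:156026072-156026321 on the plus strand for Tnfrsf18.
Tnfsf11: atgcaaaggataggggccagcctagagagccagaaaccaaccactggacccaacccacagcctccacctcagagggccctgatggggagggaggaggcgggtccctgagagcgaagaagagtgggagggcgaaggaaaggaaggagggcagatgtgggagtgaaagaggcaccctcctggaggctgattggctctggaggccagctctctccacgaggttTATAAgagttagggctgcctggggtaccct
Tnfsf10: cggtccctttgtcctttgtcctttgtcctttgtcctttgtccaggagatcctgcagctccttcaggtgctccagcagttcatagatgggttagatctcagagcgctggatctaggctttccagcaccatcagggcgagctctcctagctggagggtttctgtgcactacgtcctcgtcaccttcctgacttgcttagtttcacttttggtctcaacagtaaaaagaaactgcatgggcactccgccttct
Tnfrsf18: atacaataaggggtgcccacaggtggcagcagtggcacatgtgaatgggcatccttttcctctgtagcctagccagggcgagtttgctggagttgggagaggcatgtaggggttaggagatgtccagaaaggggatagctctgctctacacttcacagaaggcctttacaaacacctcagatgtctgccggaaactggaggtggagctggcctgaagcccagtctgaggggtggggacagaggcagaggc
The Tnfsf11 run held 1 TATAA match, which begins 30 bases before the start, and the runs of Tnfsf10 and Tnfrsf18 held no match to any of these motifs. Among 32851 runs of the same length 16.0% held TATAA, 14.0% TGTGGT and 6.75% TGANTCA. These are matches of letters and no measure of binding.

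Among the ligands 0 of 15 passed, and 11 of the 15 had both means below the receptor gene percentile, so their differences may be understated. Tnfsf10 encodes TRAIL, a ligand that triggers cell death through death receptors. It read 5.55, 5.53 and 5.38 in CD73+CD105- replicates 1, 2 and 3 and 5.77, 5.72 and 6.08 in CD73+CD105+ replicates 1, 2 and 3. Every CD73+CD105+ array was above every CD73+CD105- array, and the difference was 0.37 (SE 0.11, limma adjusted p = 0.15). Tnfsf15, which encodes TL1A, a ligand known from endothelium, stood at 6.25, 6.22 and 6.13 against 6.45, 6.36 and 6.28. Its groups were also apart, by 0.17 (SE 0.08, limma adjusted p = 0.314). The pan-endothelial markers moved the same way by a median of 2.37 in these arrays, and their part in these differences was not tested. Tnfsf9 encodes 4-1BB ligand, a T cell co-stimulator, and was at 6.79, 6.72 and 6.39 against 6.73, 6.83 and 6.97. Here the groups overlapped, with CD73+CD105- replicate 3 the lowest array (difference 0.21, SE 0.12, limma adjusted p = 0.425).

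The 3 ligands with the largest differences below 0 had both means under the receptor gene percentile. Tnfsf8, the CD30 ligand gene, stood at 4.96, 5.04 and 4.63 in CD73+CD105- and 4.42, 4.67 and 4.47 in CD73+CD105+ cells, overlapping through CD73+CD105- replicate 3. Tnfsf4, which encodes OX40 ligand, a co-stimulator of T cells, was at 5.26, 5.02 and 5.10 against 4.63, 4.89 and 4.92, with the groups apart. Cd70, which encodes the ligand of CD27, read 4.99, 4.86 and 4.96 against 4.72, 4.89 and 4.68, with the groups overlapping. The differences were -0.35, -0.31 and -0.17, and the limma adjusted p-values 0.212, 0.19 and 0.336. TNF itself (Tnf, 0.06), lymphotoxin alpha (Lta, -0.02), lymphotoxin beta (Ltb, -0.09), Fas ligand (Fasl, -0.09), LIGHT (Tnfsf14, 0.03), GITR ligand (Tnfsf18, 0.03) and the B cell survival factor BAFF (Tnfsf13b, 0.08) had differences under 0.1 in size and lay below 6.01 in both populations. Ectodysplasin (Eda), a ligand of skin appendage development, was at 6.32 and 6.31 in the means of the 2 populations.

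Of the receptors 0 of 24 passed, and 18 lay above the receptor gene percentile in at least 1 population. Tnfrsf10b, the mouse TRAIL death receptor, had the largest difference of any member. Its arrays read 8.72, 9.10 and 8.17 in CD73+CD105- replicates 1, 2 and 3 and 7.87, 8.12 and 7.78 in CD73+CD105+ replicates 1, 2 and 3. All 3 CD73+CD105- arrays were above the CD73+CD105+ arrays, though the lowest of the former and the highest of the latter nearly met. The difference was -0.74 (SE 0.22, 95% CI -1.26 to -0.22, limma adjusted p = 0.152), a level 1.67 times higher in CD73+CD105- cells. Without CD73+CD105- replicate 3 it was -0.99 and passed (limma adjusted p = 0.0461, where 1.46% of all genes did), and over all alternatives the adjusted p ran from 0.0461 to 0.577. Tnfrsf23, a decoy receptor for TRAIL in the mouse, was at 8.49, 8.34 and 8.61 against 8.18, 8.20 and 8.33. The groups of Tnfrsf23 were narrowly apart, by -0.24 (SE 0.09, limma adjusted p = 0.237), while the other mouse decoy, Tnfrsf22, differed by -0.04 with overlapping groups. The chondrocyte markers lay lower in the same arrays (median -0.26), and their part in these differences and in that of Tnfrsf18 was not tested.

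The TNF receptors and Fas had differences above 0. Tnfrsf1a, the widely expressed death-domain receptor of TNF, stood at 9.19, 9.08 and 9.25 in CD73+CD105- and 9.42, 9.48 and 9.36 in CD73+CD105+ cells. The groups were apart and the difference was 0.25 (SE 0.08, limma adjusted p = 0.156). Tnfrsf1b, the TNF receptor without a death domain, known from leukocytes and endothelium, read 6.07, 6.10 and 6.04 against 6.29, 6.36 and 6.14. Its groups were apart by 0.19 (SE 0.08, limma adjusted p = 0.269), close to the receptor gene percentile. Fas was at 7.57, 7.79 and 7.45 against 8.09, 8.40 and 7.54. CD73+CD105+ replicate 3 fell among the CD73+CD105- arrays, so the groups overlapped, and the difference was 0.41 (SE 0.21, 95% CI -0.08 to 0.90, limma adjusted p = 0.365). Without that array it was 0.64, and without CD73+CD105+ replicate 2 it was 0.21, neither of which passed.

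Ltbr, the lymphotoxin beta receptor, which stromal organiser cells of lymphoid tissue use, read 7.20, 7.50 and 7.19 against 7.57, 7.20 and 7.50, with the groups fully mixed (difference 0.12, SE 0.13, limma adjusted p = 0.666). Tnfrsf26 read 5.43, 5.45 and 5.39 against 5.63, 5.69 and 5.50, with the groups apart by 0.18 but below 6.01 in both (limma adjusted p = 0.269). The lowest adjusted p of any member belonged to Tnfrsf18, the gene of GITR, a co-stimulatory receptor of T cells. It stood at 7.15, 6.97 and 7.12 in CD73+CD105- and at 6.62, 6.82 and 6.71 in CD73+CD105+ cells. These groups were apart by -0.36 (SE 0.08, limma adjusted p = 0.0901), and the adjusted p lay between 0.0668 and 0.53 over the alternatives. The lymphoid markers, read beside it because GITR is known from T cells, had a median difference of -0.01. Their median level per array was 4.97 to 5.05 in CD73+CD105- cells and 4.99 to 5.07 in the CD73+CD105+ fraction. Of the 6 measured 5 lay below 6.01 in both populations, and their part in the Tnfrsf18 difference was not tested.

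The co-stimulatory receptors Tnfrsf9 (4-1BB) and Tnfrsf8 (CD30) also had differences below 0. For Tnfrsf9 the arrays were 6.68, 6.81 and 6.11 against 6.21, 6.33 and 6.38, where CD73+CD105- replicate 3 was the lowest of all 6 (difference -0.23, SE 0.17, limma adjusted p = 0.552). Without that array the difference was -0.44 and without CD73+CD105- replicate 2 it was -0.09, and neither passed. Tnfrsf8 was at 5.91, 5.92 and 5.76 against 5.67, 5.72 and 5.75, below the receptor gene percentile throughout, with the groups apart by less than their own ranges (difference -0.15, limma adjusted p = 0.355). The remaining 20 members, 8 of them ligands named above and Tnfrsf22 among the receptors, had differences between -0.11 and 0.10 and limma adjusted p-values of 0.552 to 0.998. The groups were apart in 1 of them, as they were in 23.7% of all genes. That member was Tnfrsf17, the plasma cell receptor BCMA (0.06), which lay below 6.01 in both populations. In this set Tnfrsf12a, the receptor of the ligand TWEAK, was at 9.50 and 9.45 in the means of CD73+CD105- and CD73+CD105+ cells, and Tnfrsf21, death receptor 6, at 8.50 and 8.46. Tnfrsf19 (TROY), a receptor of mesenchymal and epithelial progenitors, was at 6.69 and 6.79, and Cd40, through which T cells activate B cells and stroma, at 6.56 and 6.60. Tnfrsf13c, the BAFF receptor of B cells, was at 7.80 and 7.70. The others were Tnfrsf4 (OX40, 0.10), Tnfrsf14 (HVEM, 0.09), Tnfrsf25 (death receptor 3, 0.00072), Tnfrsf13b (TACI, -0.03) and Cd27 (-0.06). Of these, Tnfrsf4, Tnfrsf13b and Cd27 lay below 6.01 in both populations.

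**Figure D3:**
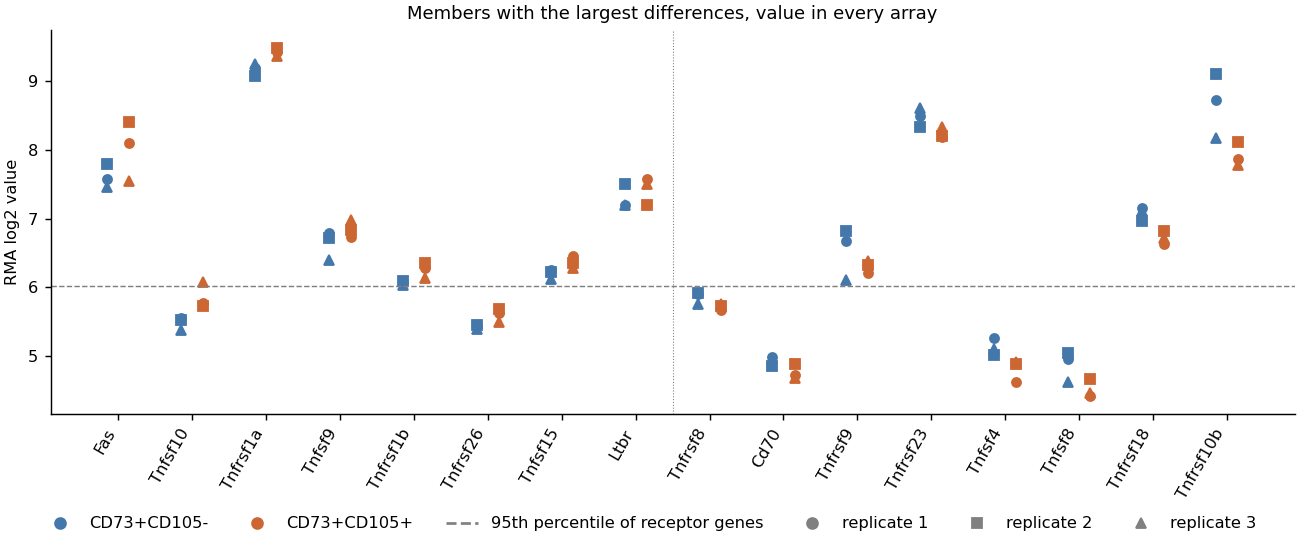
RMA log2 values in every array for the 8 members with the largest differences above 0 (left of the dotted line) and the 8 with the largest below 0 (right), blue for CD73+CD105- and orange for CD73+CD105+, 1 symbol per array; the dashed line is the receptor gene percentile (6.01). Tnfrsf10b and Tnfrsf18 are lower in all 3 CD73+CD105+ arrays, Tnfsf10 and Tnfrsf1a are higher in all 3, and Fas, Ltbr, Tnfsf9 and Tnfrsf9 overlap.

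Read as ligand and receptor pairs, the TRAIL genes had differences of 0.37 for the ligand Tnfsf10 and -0.74, -0.24 and -0.04 for its receptors Tnfrsf10b, Tnfrsf23 and Tnfrsf22, of which 0 passed. The OX40 pair stood at -0.31 (Tnfsf4) and 0.10 (Tnfrsf4), the CD30 pair at -0.35 (Tnfsf8) and -0.15 (Tnfrsf8), the 4-1BB pair at 0.21 (Tnfsf9) and -0.23 (Tnfrsf9) and the GITR pair at 0.03 (Tnfsf18) and -0.36 (Tnfrsf18). Whether the genes of a pair differed from each other was not tested. Family genes outside the symbol rule held 0 calls of 5, with the receptor Relt at -0.24 and the CD40 ligand gene Cd40lg at 0.21 (0 at an unadjusted p under 0.05 in limma).

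Over all 6 pathway lists, 5 of 80 measured genes rose and 0 fell, where 1.35% of all genes rose and 0.466% fell. These lists include the regulators of RANKL and OPG and the family genes outside the symbol rule, given above, which are not downstream of the receptors. Of 29 adaptors and signal transducers 0 passed in limma, with a median of 0.04. At an unadjusted p under 0.05 there were 5 of the 29, where 17.7% of all genes were. Traf1, an adaptor gene that NF-kB induces, was at 0.62 and Mlkl, the executor of necroptosis, at 0.44 (limma adjusted p = 0.189 and 0.403). Traf1 lay below 6.01 in both populations, and the groups of Mlkl overlapped. The 11 NF-kB subunits, kinases and inhibitors also held 0, with a median of -0.13. Bcl3, a nuclear cofactor, was at -0.36 (SE 0.15) and the subunit Rel at -0.25 (SE 0.23), both with the groups overlapping. The 1 gene at an unadjusted p under 0.05 in limma, where 17.7% of all genes were, was the subunit Rela. Its difference was -0.25 (SE 0.07, limma adjusted p = 0.138), with the groups apart.

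Of 22 TNF-responsive genes 3 rose, 0 fell and 19 did not pass, with a list median of 0.13. Sele, the E-selectin of activated endothelium, was at 6.39, 6.42 and 6.25 in CD73+CD105- and 9.27, 9.48 and 8.93 in CD73+CD105+ cells, a rise of 2.87 (SE 0.14, limma adjusted p = 0.000272). Vcam1, an adhesion molecule of endothelium and reticular stroma, rose by 1.30 (SE 0.12, limma adjusted p = 0.00544). Csf1, which encodes the growth factor that osteoclast precursors need beside RANKL, was at 7.95, 7.86 and 7.76 against 8.65, 8.51 and 8.87, with the groups well apart. It rose by 0.83 (SE 0.11, limma adjusted p = 0.017), a call lost with the batch term (0.0546), without replicate 1 of CD73+CD105- (0.0561) or CD73+CD105+ cells (0.0639) and without CD73+CD105- replicate 2 (0.0604). Sele and Vcam1 passed with the batch term. At an unadjusted p under 0.05 in limma there were 8 of the 22, where 17.7% of all genes were. The chemokine gene Ccl2 was at 0.67 and did not pass (limma adjusted p = 0.0552), though it did without CD73+CD105+ replicate 2 (0.0353) and among genes above the receptor gene percentile (0.0465). Tnfaip6, a hyaluronan-binding protein, was at 0.49 (0.0928), the chemokine Ccl7 at 0.44, the adhesion molecule Icam1 at 0.38 and the chemokine Cxcl10 at 0.36. Nearer 0 were Nfkbia (0.17) and Tnfaip3 (0.01), which restrain NF-kB, the apoptosis inhibitor Birc3 (-0.05), Cxcl1 (0.19) and Il6 (0.03). The pan-endothelial markers (10 of 10) and 5 of 8 reticular stroma markers (median 0.81) rose in the same arrays, and their part in the rise of Sele, Vcam1 and Csf1 was not tested.

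Of 7 genes of the lymphoid-organiser programme downstream of LTBR 1 rose, the chemokine Ccl19, from 8.60, 8.73 and 8.29 to 9.34, 9.20 and 9.41, by 0.78 (SE 0.12, limma adjusted p = 0.0316). That call was lost with the batch term (0.0868), without either replicate 1 array (0.101 and 0.116) and without CD73+CD105+ replicate 3 (0.0981). Il7, a lymphocyte survival cytokine, was at 0.60 and the B cell chemokine Cxcl13 at 0.40 (limma adjusted p = 0.181 and 0.0613), and the list median was 0.18. Of the 7 genes 4 lay below 6.01 in both populations, Cxcl13 among them. The endothelial and reticular stroma markers rose in the same arrays by medians of 2.37 and 0.81, and their part in the rise of Ccl19 was not tested. Ltb and Tnfsf14, the ligands of LTBR, were at -0.09 and 0.03 in the same arrays.

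**Figure D4:**
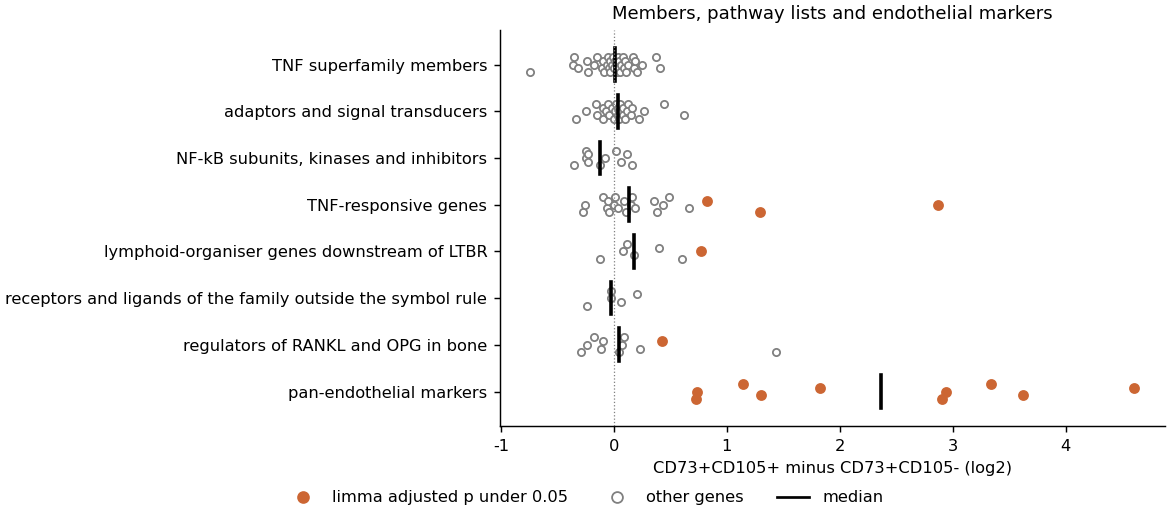
Difference of each gene (log2, CD73+CD105+ minus CD73+CD105-) for the TNF superfamily members, the 6 pathway lists and the pan-endothelial markers; filled points passed limma at an adjusted p under 0.05 and the black bar is the median. The members centre on 0.00733 with 0 filled points, the pathway lists hold 5 filled points (Sele, Vcam1, Csf1, Ccl19 and Il6st), and the endothelial markers have 10 of 10 filled with a median of 2.37.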

How the data were processed

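Total RNA of the sorted cells was labelled with biotin, 1 array per sample, per the labels. The deposited table holds log2 values for each probe set, for which the authors used RMA (background correction, quantile normalization and probe summary), per the submitters' processing notes; its version, the probe annotation and the build are not stated there. Array medians were 6.27 to 6.35. RMA compresses differences near background. No detection calls were used.

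Of 35556 probe sets, 21789 had 1 symbol in the platform annotation, 1621 several and 12146 none. The probe set with the highest mean over the 6 arrays was taken per gene, which gave 19938 genes. Groups and replicate numbers come from the sample titles. limma 3.58.1 (lmFit and eBayes, two-sided, no block) was run in R 4.3.3 and checked on simulated data; the RANKL and OPG values were compared by an exact permutation test over arrays. No low-value filter was applied, and precision is limited by having 6 arrays. Values in every array are given for the RANKL genes and the 8 largest differences in each direction; from each pathway list the genes past the threshold were named, or the 2 with the largest difference where fewer than 2 passed, and others named as examples were chosen after their values were seen. The members, lists, rules and alternatives (replicate block, batch term, single arrays left out, scaling, filter, probe sets, trend, replicate subsets) were chosen with earlier results of these data known.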

Additional observations from a re-analysis of the deposited data

How the results depend on the processing

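Across the alternatives the count of members past the threshold was 0, except that leaving out 1 array gave 0 to 1 (Tnfrsf10b). Members at an unadjusted p under 0.05 numbered 9; there were 4 among the 22 above the receptor gene percentile (fewer genes tested), 2 in replicates 2 and 3 alone (fewer samples), and 4 to 10 with 1 array left out. The pathway lists held 5 genes past the threshold, 7 among genes above the receptor gene percentile, 6 with the intensity trend, 2 with the batch term, 1 in replicates 2 and 3 alone (an alternative chosen after seeing the data) and 2 to 5 with 1 array left out; the cause was not tested for the batch term. The RANKL minus OPG difference was -0.16 in replicate 1 alone and -0.0368 to 0.0841 with 1 array left out. Small differences changed sign: in replicates 2 and 3 alone Ltbr was -0.00061, Tnfrsf11a -0.00641 and Tnfrsf11b -0.0231, in replicate 1 alone Tnfsf11 was -0.0888 and Tnfsf9 -0.0601, and with 1 array left out Tnfrsf11b ran from -0.0500 to 0.0643 and Tnfsf11 from -0.0103 to 0.0710. Of 19 members with values given, 14 kept their sign in every alternative that gave them a value; those run were 15, and dim members dropped out of the one with the filter. With the replicate number as a block 215 of 19938 genes passed. Among the members 0 passed and 7 had an unadjusted p under 0.05. Of the pathway genes 4 passed: Sele, Vcam1, Csf1 and Ebf1 (limma adjusted p = 0.0193), while Ccl19 (0.0727) and Il6st (0.122) did not. The labels tie same-numbered samples by number alone. Their deviations from the group means correlated over genes at -0.88, 0.00659 and 0.10 for numbers 1, 2 and 3. The replicate 1 arrays thus did not vary independently of each other, and the fits without a block treat them as independent. Signals near the receptor gene percentile limit 17 of the 39 members, which lay below it in both populations.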

Other observations

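One probe set carries 3 symbols, at least 1 of which meets the symbol rule, and so names no single gene. It stood at 7.70, 7.60 and 7.78 in CD73+CD105- replicates 1, 2 and 3 and at 8.05, 8.03 and 7.94 in CD73+CD105+ replicates 1, 2 and 3. The groups did not overlap, as for 23.7% of all genes (10.7% higher in CD73+CD105+ cells). The difference was 0.31 (exact permutation test, two-sided, p = 0.10, the smallest that 3 against 3 arrays allow and the value any such separation gives). It was not among the 19938 genes tested.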
